A study of Mus musculus with 22 samples.

Results

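The CXC chemokines described here are Cxcl1, Cxcl2, Cxcl5, Cxcl9, Cxcl10, Cxcl12, Cxcl13, Cxcl14, Cxcl15 and Cxcl16. They were taken by gene symbol and make up 10 of the 18193 genes named on the array. All 19 probe sets annotated to these symbols were followed, of 45037 probe sets that are not controls. A probe set is a group of short oligonucleotides that reads a single transcript region, and its deposited value is an intensity on a linear scale. Where a gene had several probe sets, the brightest over all arrays stands for the gene and the others are given beside it.

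Gene expression was measured on 22 arrays. A2C12 is a lung tumour cell line derived from a mouse that carried c-myc and c-raf transgenes on a C57BL/6 background. Its side population, the cells that pump out the dye Hoechst, was sorted by flow cytometry, so no unsorted A2C12 cells enter these data. The groups were 3 arrays of untreated sorted cells, 3 arrays of sorted cells that had been exposed to a monoclonal antibody against mouse EpCAM at 100 µg/ml for 48 h, and 16 arrays of C57BL/6 lung without transgenes, of which 8 carry a male and 8 a female label. Both cell groups carry the transgenes and come from a single line, and the age of the mice was not given in the sources used here. The labels call the samples biological replicates without saying that they came from separate cultures or animals, so the p-values measure the spread between these samples, which may be partly technical.

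Chemokines are small secreted proteins that steer migrating leukocytes along concentration gradients through G protein-coupled receptors. The CXC ligands with a Glu-Leu-Arg motif ahead of the first cysteines, such as Cxcl1, Cxcl2, Cxcl5 and Cxcl15, attract neutrophils, mostly through Cxcr2, and many are induced through NF-kappaB after IL-1, TNF or bacterial products. Cxcl9 and Cxcl10 lack that motif, are induced by interferons and attract activated T cells through Cxcr3, whereas Cxcl12, Cxcl13 and Cxcl14 are largely made constitutively, Cxcl12 by stromal cells and Cxcl13 by stroma of B cell follicles. Cxcl16 is made as a transmembrane protein that can be shed by proteases. Cxcl15, also called lungkine, is a chemokine of the mouse airway and alveolar epithelium.

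Cxcl1 with Cxcl2 and Cxcl9 with Cxcl10 were the only pairs of ligands tested for correlation across the lung arrays, and each pair varied together. Their promoters are the 4 shown, of the 8 that were available for the 10 genes. Each runs 5′ to 3′ from 250 bases before to 50 bases after the start of transcription, from RefSeq on build GRCm38.p6. Cxcl1 lies at chr5:90890995-90891294 and Cxcl2 at chr5:90903649-90903948, both on the plus strand. Cxcl9 lies at chr5:92328030-92328329 and Cxcl10 at chr5:92348840-92349139, both on the minus strand. Capitals mark matches to the NF-kappaB consensus in Cxcl1, Cxcl2 and Cxcl10, and to the core of the interferon-stimulated response element, GAAANNGAA, in Cxcl9 and Cxcl10.
Cxcl1: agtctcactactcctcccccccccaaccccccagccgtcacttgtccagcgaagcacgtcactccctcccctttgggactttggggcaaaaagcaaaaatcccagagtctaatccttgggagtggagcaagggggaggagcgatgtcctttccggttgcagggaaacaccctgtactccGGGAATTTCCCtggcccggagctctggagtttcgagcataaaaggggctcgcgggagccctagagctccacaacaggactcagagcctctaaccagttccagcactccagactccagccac
Cxcl2: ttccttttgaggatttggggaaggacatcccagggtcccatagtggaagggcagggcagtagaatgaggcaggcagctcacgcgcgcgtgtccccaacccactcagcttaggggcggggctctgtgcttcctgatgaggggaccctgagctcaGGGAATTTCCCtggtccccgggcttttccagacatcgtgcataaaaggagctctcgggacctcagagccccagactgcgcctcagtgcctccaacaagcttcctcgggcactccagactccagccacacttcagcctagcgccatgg
Cxcl9: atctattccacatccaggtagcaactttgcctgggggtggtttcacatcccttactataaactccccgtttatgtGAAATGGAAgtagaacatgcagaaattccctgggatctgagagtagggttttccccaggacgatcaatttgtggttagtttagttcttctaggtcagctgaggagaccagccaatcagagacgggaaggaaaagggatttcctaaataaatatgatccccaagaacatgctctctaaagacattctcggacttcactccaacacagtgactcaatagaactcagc
Cxcl10: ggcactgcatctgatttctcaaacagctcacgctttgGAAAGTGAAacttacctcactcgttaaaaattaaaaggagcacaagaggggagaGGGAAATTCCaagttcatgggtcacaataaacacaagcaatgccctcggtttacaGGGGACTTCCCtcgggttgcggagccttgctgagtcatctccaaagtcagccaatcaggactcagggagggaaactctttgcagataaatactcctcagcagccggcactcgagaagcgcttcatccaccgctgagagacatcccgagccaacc

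Cxcl1 and Cxcl2 each held the same run of 11 letters, GGGAATTTCCC, in which the NF-kappaB consensus matched on both strands in overlapping positions. Counted from the base just before the start as -1, this run spans -71 to -61 in Cxcl1 and -97 to -87 in Cxcl2. Cxcl10 held a match from -159 to -150 and a cluster of overlapping matches from -104 to -94. Of the 8 promoters, 3 held the NF-kappaB consensus, which occurred in 8.46% of the 32851 promoters of 300 bases in the table. The interferon-stimulated response element core was in 3 of the 8, those of Cxcl9 from -175 to -167, Cxcl10 from -213 to -205 and Cxcl14 from -172 to -164, and in 8.56% of all promoters. The gamma-interferon-activated site TTCNNNGAA was in that of Cxcl14 alone among the 8, from -191 to -183, and in 8.3% of all promoters. All motifs were searched on both strands, and a match is a match of letters only. Of the 10 genes, 7 lie on chromosome 5, and Cxcl12, Cxcl16 and Cxcl14 lie on chromosomes 6, 11 and 13.

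Arrays had mean intensities of 270.08 to 312.7, and medians of 39.37 to 40.65 for cells and 47.92 to 54.56 for lung. The arrays labelled male lung 3 and 4 went against their label, with Xist at 1512 and 1583 and the Y-linked Uty at 8.27 and 9.46, whereas the remaining 6 lungs labelled male had Xist of 12.7 to 24 and Uty of 722 to 1253. The lung arrays numbered 5 to 8 differed from those numbered 1 to 4 in 5994 of 29538 probe sets (limma, adjusted p under 0.05, 20.3%), and the labels do not say what the numbers stand for. The bacterial dap control, a labelling spike, reached 366 to 601 with cell RNA but no more than 2.72 with lung RNA, so labelling and sample source cannot be told apart in any comparison of cells with lung. Epcam, whose product the antibody binds, read at most 11.1 on the 6 cell arrays against a mean of 842 in lung, and 6 of 7 epithelial markers were called lower in untreated cells than in lung, beside 19.6% of all probe sets. Ptprc, the pan-leukocyte antigen CD45, read at most 1.33 on the cell arrays, but some markers of myeloid cells did not read near 0 there. Csf1r, the macrophage growth factor receptor, had a mean of 534 in untreated cells and 2609 in lung, S100a8, a neutrophil protein, 165 and 3227, and Cd68, a lysosomal macrophage protein, 99.9 and 657. Among the other neutrophil and macrophage markers measured, the highest cell array was 9.73 for S100a9, 0.03 for Csf3r and for Cxcr2, and 0.0048 for Marco. It was 10.5 for Mrc1, 11.9 for Adgre1, 12.7 for Itgax and 100.2 for Mmp9. The lists for neutrophils, macrophages, B cells, T cells, endothelium, club and alveolar type 2 cells were lower in every tested member, beside 19.6% of all probe sets called lower. Many of these markers were bright enough to test only through the lung arrays where they are high, so this is a description.

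The first question was how chemokine transcripts of the sorted tumour cells compare with those of normal lung. Cxcl1 and Cxcl12 were higher in the tumour cells than in lung, and Cxcl5, Cxcl9, Cxcl13, Cxcl14, Cxcl15 and Cxcl16 were lower. Cxcl2 was also higher in the cells, on a wide spread, and Cxcl10 did not reach the 2-fold requirement. In the limma model, 18 of the 19 probe sets passed the filter on low values. Of these, 6 were called higher in untreated cells than in lung, beside 20.1% of the 32533 probe sets tested, and 10 were called lower, beside 19.6%. In antibody-treated cells 6 were called higher, beside 19.8% of 32422, and 10 lower, beside 19.6%. A call needed an adjusted p under 0.05 and at least 2-fold. The 6 were the 3 sets for Cxcl1, that for Cxcl2 and 2 of 3 for Cxcl12, so they stand for 3 genes, and the 10 stand for 6 genes. The median difference over the 18 was -1.89 on the log2 scale in untreated and -1.81 in treated cells, beside 0.14 and 0.12 over all probe sets tested. Of the 10 lower sets, 6 (those of Cxcl5, Cxcl9, Cxcl13 and Cxcl14) were too dim on the cell arrays to pass the filter there. They entered through the lung arrays where they are high. The counts and medians, and the p-values of these 6 sets, are therefore a description. Both comparisons use the same 16 lung arrays. Without male lung 3 and 4 the counts were again 6 higher and 10 lower in each. Because the samples are bulk RNA, fewer cells of a type and less RNA per cell cannot be told apart in the lung.

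**Figure D1:**
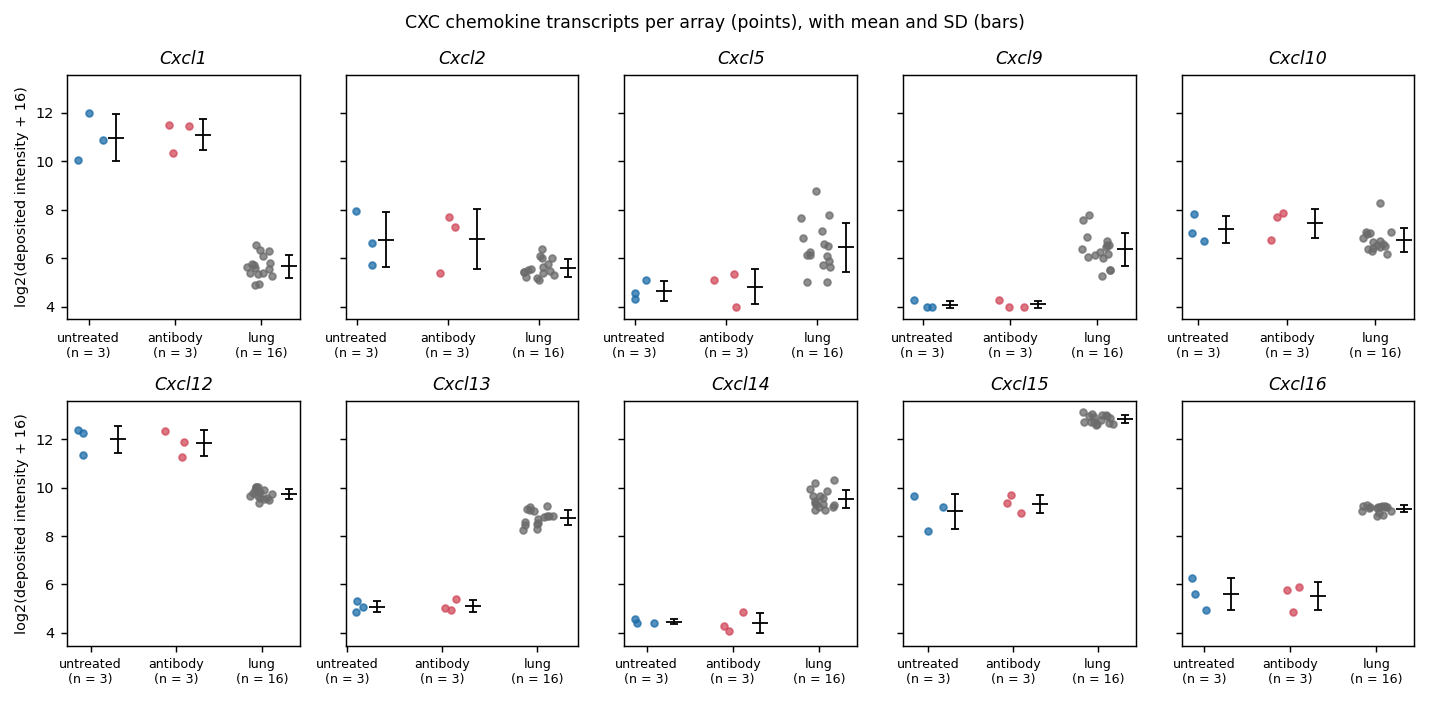
Each panel plots a chemokine's brightest probe set as log2(deposited intensity + 16), with a point for each array and bars for the mean and SD of the 3 untreated, 3 antibody-treated and 16 lung arrays. All cell arrays lie above all lung arrays for Cxcl1 and Cxcl12 and below them for Cxcl9, Cxcl13, Cxcl14, Cxcl15 and Cxcl16, while Cxcl2, Cxcl5 and Cxcl10 overlap with lung.

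Among the neutrophil attractants, Cxcl1 showed the widest separation. Its probe set 1419209_at read 4021, 1890 and 1051 on the 3 untreated arrays and 2763, 2899 and 1300 on the 3 treated arrays, against a lowest value of 14.2, a median of 32.7 and a highest of 78.7 over the 16 lungs. Every cell array stood far above every lung array, and the highest and lowest cell arrays were untreated 1 and untreated 3. Untreated cells were higher than lung by 5.35 ± 0.32 (SE) on the log2 scale (limma, adjusted p = 1.18e-13) and treated cells by 5.48 ± 0.32 (adjusted p = 7.51e-14). The other sets for Cxcl1 gave 4.23 for 1457644_s_at and 4.06 for 1441855_x_at in untreated cells, and both can read related transcripts by their type. They kept the same order of groups, with 923 to 3159 and 631 to 1624 on the untreated arrays against at most 134 and 90.4 in lung.

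Cxcl2, the close relative that lies next to Cxcl1, was far less separated. Its intensities were 233.5, 81.9 and 36.5 in untreated and 141.3, 190.2 and 26.1 in treated cells, and 18.5, 29.3 and 67.6 as the lowest, median and highest in lung. Array 3 of each cell group fell inside the lung range, and the other 4 cell arrays lay above it. The SD of the intensities was 103.1 in untreated cells, 84.3 in treated cells and 13.7 in lung. The SE of cells against lung rests on a spread shared with the lung arrays. In the fit of the cell arrays alone, the SE of treated minus untreated cells was 0.66. The difference was 1.42 ± 0.36 in untreated cells (limma, adjusted p = 0.000875) and 1.44 ± 0.36 in treated cells (adjusted p = 0.000787). It fell below 2-fold without untreated array 1, at 0.85 (adjusted p = 0.0459), without treated array 2, at 0.98 (adjusted p = 0.0312), and with the larger offset of 64, at 0.91 and 0.94.

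Cxcl5, which is made by lung epithelium after injury, went the other way. The cells read 18.3, 7.41 and 3.85 untreated and 24.5, 18.7 and 0.0359 treated, while the lungs ran from 16.2 through a median of 57.5 to 427.1. Some cell arrays reached the lowest lungs, and no cell array reached the lung median. The difference was -1.61 ± 0.50 in untreated cells (limma, adjusted p = 0.00475) and -1.43 ± 0.50 in treated cells (adjusted p = 0.0109). Without treated array 3 the latter was -0.99 (adjusted p = 0.127), and with the offset of 64 both fell short of 2-fold at -0.86 and -0.77.

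Cxcl15 was abundant in lung and much lower in the cells. Its set 1421404_at read 778.5, 282.2 and 577.4 in untreated and 636, 472.3 and 814 in treated cells, against 6061, 7283 and 8906 as the lowest, median and highest in lung. The groups did not overlap, and the highest cell array lay well below the lowest lung. Untreated cells were lower by a log2 difference of -3.82 ± 0.14 (limma, adjusted p = 1.43e-17) and treated cells by -3.51 ± 0.14 (adjusted p = 7.75e-17). The second set, 1456428_at, gave -5.28 and -5.04, with 87.6 to 163 on the cell arrays and 5111 to 8380 in lung. The 7 alveolar type 2 markers measured, genes of the surfactant-making epithelium, summed to 337 to 448 on the cell arrays and to 40760 to 61080 on the lung arrays, and their part in the Cxcl15 difference was not tested.

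**Figure D2:**
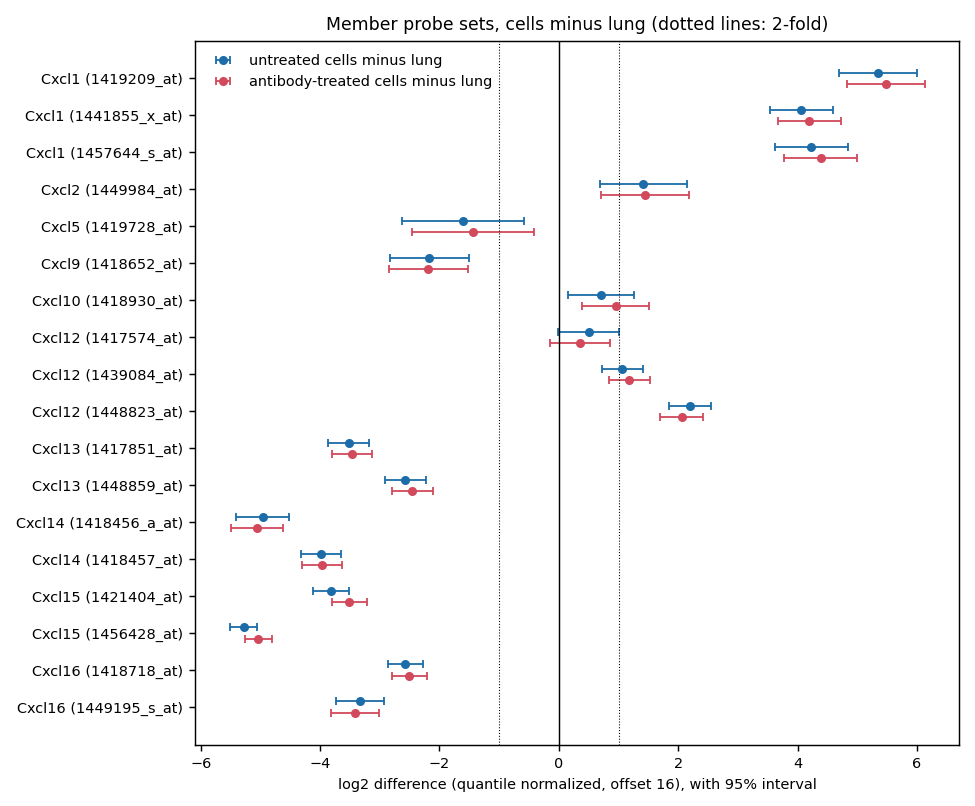
For each of the 18 tested probe sets, points give the log2 difference between untreated (blue) or antibody-treated (red) cells and lung, bars its 95% interval from the limma model, and dotted lines mark 2-fold. The 3 sets for Cxcl1 lie between 4.06 and 5.48, and those for Cxcl13, Cxcl14, Cxcl15 and Cxcl16 lie at -2.46 or below in both cell groups.

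The interferon-inducible ligands differed from each other. Cxcl9 read 3.16, 0.00213 and 0.00333 in untreated and 0.00371, 3.32 and 0.00323 in treated cells by set 1418652_at, and 22.5, 64.3 and 207.3 as the lowest, median and highest in lung. Every cell array was close to 0 and below every lung array. The difference was -2.17 ± 0.32 in untreated cells (limma, adjusted p = 1.37e-06) and -2.19 ± 0.32 in treated cells (adjusted p = 1.24e-06), on a scale where the offset of 16 compresses changes near 0. With an offset of 64 it was -0.98 in both, just short of 2-fold. The second set for Cxcl9, 1456907_at, was too dim to be tested, with 4.49 to 10.6 on the cell arrays and 15.1 to 37.1 in lung, again without overlap.

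Cxcl10 overlapped between the cells and lung. Its values were 207.8, 117.2 and 89.3 in untreated cells, 193.5, 215.8 and 91.9 in treated cells, and 57.2, 83.4 and 291.9 as the lowest, median and highest in lung. All 6 cell arrays lay above the lung median and inside the lung range, whose top was female lung 2 alone. The next lung read 117.9, and untreated 1 and treated 1 and 2 lay above it. The difference of 0.71 ± 0.27 in untreated cells had an adjusted p of 0.0192 in limma, and that of 0.95 ± 0.27 in treated cells an adjusted p of 0.00263, but neither reached 2-fold. In treated cells it passed 2-fold with an offset of 1 (1.07), with array weights (1.09), without treated array 3 (1.27) and without female lung 2 (1.04), the lung with the highest Cxcl10.

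Among the homeostatic ligands, Cxcl12, also known as stromal cell-derived factor 1, was the member that the tumour cells expressed above lung beside Cxcl1 and Cxcl2. Set 1448823_at read 2597, 5254 and 4875 in untreated and 3730, 2473 and 5203 in treated cells, and 640, 856 and 1040 as the lowest, median and highest in lung. No cell array overlapped with lung. Untreated cells were higher by 2.19 ± 0.17 (limma, adjusted p = 2.57e-11) and treated cells by 2.06 ± 0.17 (adjusted p = 8.68e-11). The 3 sets for Cxcl12 did not give the same size of difference. Set 1439084_at, dim with 86.2 to 130.9 on the cell arrays and 30.3 to 73.8 in lung, gave 1.06 and 1.18, which fell below 2-fold without normalization (0.77 and 0.92), with an offset of 64 (0.68 and 0.77) and against the lung arrays numbered 1 to 4 alone (0.84 and 0.96). Set 1417574_at overlapped with lung, 812 to 2414 on the cell arrays against 605 to 1475, and its differences of 0.50 (limma, adjusted p = 0.0655) and 0.35 (adjusted p = 0.187) were not called. Without treated array 3 the latter was -0.042. Of the 6 fibroblast markers, 1 was higher and 3 lower in each cell group. Over all probe sets tested, 20.1% were called higher and 19.6% lower in untreated cells, and 19.8% and 19.6% in treated cells. The fibroblast list summed to 6546 to 11470 on the cell arrays and 12240 to 17330 in lung. Its part in the Cxcl12 difference was not tested.

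Cxcl13, the B cell attractant that acts through Cxcr5, was low in the tumour cells. Set 1417851_at read 17.1, 13.3 and 24.1 in untreated and 14.6, 16.6 and 26.7 in treated cells, and 292.6, 432.6 and 590.5 as the lowest, median and highest in lung. The groups were widely apart, with differences of -3.52 ± 0.16 (limma, adjusted p = 1.11e-15) and -3.46 ± 0.16 (adjusted p = 1.58e-15). The second set, 1448859_at, gave -2.57 and -2.46. The 4 B cell markers measured summed to 41.7 to 52.3 on the cell arrays and 855 to 2510 in lung, and their part in the Cxcl13 difference was not tested.

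Cxcl14, a ligand expressed by many epithelia, was close to 0 in the cells. Set 1418456_a_at read 7.79, 5.57 and 5.29 in untreated and 0.679, 3.43 and 12.8 in treated cells, and 523.4, 666.5 and 1257 as the lowest, median and highest in lung. None of the cell arrays approached the lung arrays. The differences were -4.96 ± 0.21 (limma, adjusted p = 1.9e-16) and -5.05 ± 0.21 (adjusted p = 1.38e-16). The second set, 1418457_at, read below 1 on every cell array and 143 to 377 in lung, with differences of -3.99 and -3.97.

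Cxcl16, the transmembrane ligand of Cxcr6, was lower in the cells than in lung. Set 1449195_s_at read 61.3, 32.4 and 14.8 in untreated and 39.5, 44 and 13.3 in treated cells, and 435.6, 565.8 and 598.9 as the lowest, median and highest in lung. The groups did not overlap, and the difference was -3.33 ± 0.19 in untreated (limma, adjusted p = 9.48e-14) and -3.41 ± 0.19 in treated cells (adjusted p = 5.89e-14). The second set, 1418718_at, gave -2.57 and -2.51, with 34 to 73.6 on the cell arrays. Adam10, a protease known to shed Cxcl16, was higher in untreated cells by 1.03 (limma, adjusted p = 3.52e-09). Adam17, another of the 4 proteases examined, had a difference of -0.26 and was not called. The 3 general leukocyte markers summed to 15.8 to 42 on the cell arrays and 4759 to 6520 in lung, the 6 macrophage markers to 465 to 747 and 4343 to 7400, the 5 neutrophil markers to 55.1 to 345 and 2533 to 17620, and the 4 T cell markers to 5.77 to 36.7 and 639 to 1147. Their part in the Cxcl9 and Cxcl16 differences was not tested.

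Over the 19 probe sets, all arrays of untreated cells were above all lung arrays in 5, and below all of them in 10. Over all 45037 probe sets, 24.1% lay entirely above and 25.8% entirely below lung, and 20.1% were called higher and 19.6% lower, so 5 of 19 is close to the share over the array. The counts for treated cells were also 5 and 10, beside 22.4% and 25.6% without overlap and 19.8% and 19.6% called. The 4 sets that overlapped with lung were those of Cxcl2, Cxcl5 and Cxcl10 and set 1417574_at for Cxcl12.

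The members on chromosome 5 were also read in their gene order, from RefSeq on GRCm38.p6. The first stretch runs Cxcl5, Ppbp, Pf4, Cxcl3, Cxcl15, Cxcl1 and Cxcl2. Ppbp and Pf4, the platelet chemokines, were lower in untreated cells than in lung by log2 differences of -5.86 and -5.36, with means of 7.25 and 9.36 in the cells and 1456 and 1106 in lung. Cxcl3, another neutrophil attractant, had a difference of -0.64 and was not called. Within this stretch, the directions therefore changed between the adjacent genes Cxcl15 (-3.82) and Cxcl1 (5.35). In the second stretch, Cxcl9 (-2.17), Art3 (-4.58), an ADP-ribosyltransferase family gene, Cxcl10 (0.71) and Cxcl11 (0.13) follow each other. Cxcl9 was called lower and Cxcl10 was not called.

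**Figure D3:**
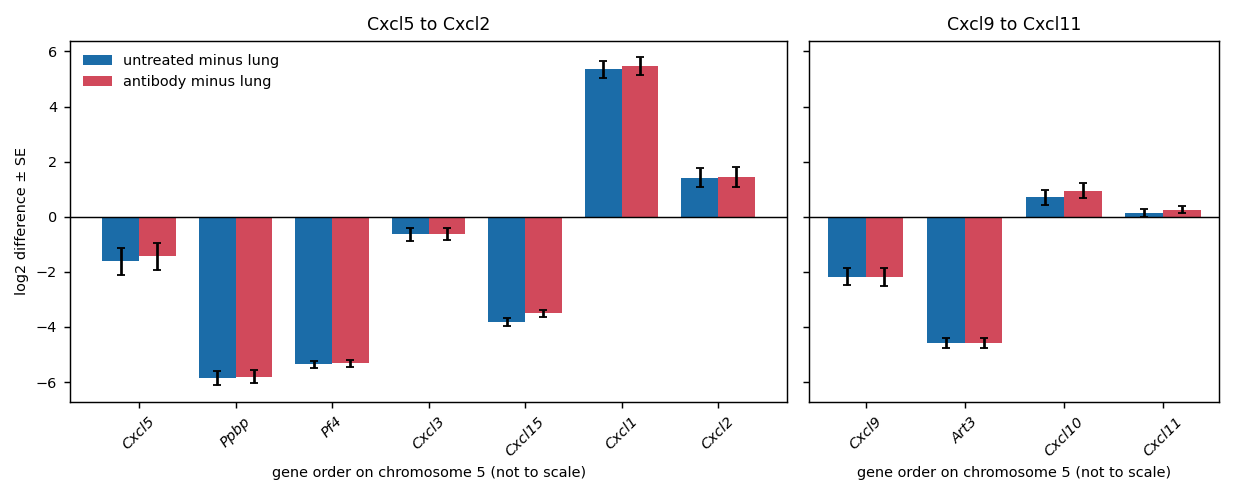
Bars give the log2 difference between untreated (blue) or antibody-treated (red) cells and lung for genes in their order on chromosome 5, not to scale, with SE from the limma model. Cxcl1 (5.35) and Cxcl2 (1.42) are higher beside the lower Cxcl15 (-3.82), Pf4 (-5.36) and Ppbp (-5.86) in untreated cells.

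The rest of the chemokine system was counted from lists of 5 ligands, 8 receptors, 4 proteases and the genes of the inducing pathways, beside 20.1% of all probe sets called higher and 19.6% lower in untreated cells. Of the 5 other CXC ligands, 0 were higher and 3 lower in untreated cells, Cxcl17 (-4.65), Ppbp and Pf4. Of 7 receptors measured, 0 were higher and 5 lower. They included Cxcr4, the signalling receptor for Cxcl12, at -4.89 (limma, adjusted p = 1.37e-20), with a mean of 1.38 in untreated cells and 525.7 in lung. Cxcr6, the receptor for Cxcl16, was at -3.15 and Cxcr5, the receptor for Cxcl13, at -2.97. Ackr3, which binds and removes Cxcl12, had means of 1312 in untreated cells and 789 in lung, a difference of 0.71 that stayed under 2-fold. Of 4 proteases that act on chemokines, Adam10 was higher, and Dpp4 (-5.13) and Mmp9 (-2.65) were lower. In treated cells the counts of these 3 lists were the same, 0 and 3 of 5 ligands, 0 and 5 of 7 receptors, and 1 and 2 of 4 proteases. Over all probe sets, 19.8% were called higher and 19.6% lower in treated cells. Cxcr4, Cxcr5, Ppbp, Pf4 and Dpp4 were among those too dim on the cell arrays to pass the filter there. They entered through the lung arrays, so these counts and the p-value for Cxcr4 are a description.

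The genes of the inducing pathways were read beside the shares called over all probe sets, 20.1% higher and 19.6% lower in untreated cells. Of 14 genes of the NF-kappaB, IL-1 and TNF list, 2 were higher and 1 lower in untreated cells, with a median of -0.26 beside 0.14 over all probe sets. The 2 were Nfkbiz, an inducible co-factor of NF-kappaB, at 1.54 (limma, adjusted p = 3.16e-06), and Tnfaip3, the deubiquitinase A20 that limits the pathway, at 1.36 (adjusted p = 2.06e-05). Both spread widely in untreated cells, with an SD of 595 on a mean of 1261 for Nfkbiz and 807 on 1158 for Tnfaip3. In lung the SD was 68.8 and 62.4, and the p-values rest on a spread shared with the lung arrays. Tlr2, a receptor for bacterial lipopeptides, was lower at -2.08. Of 11 interferon-pathway genes, 0 were higher and 5 lower, with a median of -0.91. The 3 with the widest change were the transcription factors Irf8 (-4.48) and Irf7 (-2.41) and the kinase Jak1 (-2.1). Irf8 was too dim on the cell arrays to pass the filter there and entered through the lung arrays. In treated cells the counts were again 2 and 1 of 14 and 0 and 5 of 11. The shares called over all probe sets in treated cells were 19.8% higher and 19.6% lower.

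The next question was whether the antibody changed chemokine transcripts in the sorted cells. In the limma model of the 6 cell arrays, 12 of the 19 probe sets were bright enough to test and 0 were called, beside 0.0109% of the 27499 probe sets tested, a total of 3. An unadjusted p under 0.05 was reached by 331 of the 27499, and by none of the 12. All 19 probe sets overlapped between treated and untreated arrays, and over all 45037 probe sets 2.64% lay entirely higher and 3.36% entirely lower in treated cells. The differences ran from -0.14 to 0.31, each with an adjusted p of 1.

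The intervals left room for changes of some size. For Cxcl1 the difference was 0.13 with a 95% interval from -0.90 to 1.15, so a rise of slightly more than 2-fold lay within it. For Cxcl2 it was 0.018, from -1.48 to 1.52, the widest of the 12. For Cxcl12 (1448823_at) it was -0.14, from -0.88 to 0.60. Cxcl10 gave 0.24 (-0.50 to 0.97), Cxcl15 0.30 (-0.41 to 1.02) and Cxcl16 -0.086 (-0.98 to 0.81). Leaving out single arrays turned the sign for Cxcl1, Cxcl2, Cxcl12, Cxcl15 and Cxcl16, with the ranges in the closing section. Cxcl5, Cxcl9, Cxcl13 and Cxcl14 were too dim in the cells to be tested.

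The spread among the 6 cell arrays had its own order. Cxcl1, Cxcl2, Cxcl10 and Cxcl16 were high on the same arrays, untreated 1 and treated 1 and 2, and low on untreated 3 and treated 3, while Cxcl12 was lowest on untreated 1 and treated 2. For Cxcl16 this order, and the correlations below, are those of set 1449195_s_at, which can read related transcripts by its type. On the cell arrays it was dimmer than 1418718_at, with means of 36.2 untreated and 32.2 treated against 54.8 and 57.2. The second set, 1418718_at, read 69.9, 60.4 and 34 in untreated and 73.6, 49.3 and 48.6 in treated cells, so its treated arrays 2 and 3 were nearly equal and both below untreated 2. These 15 pairs of 6 tested members were compared after their values had been seen. Across the 6 arrays, log2 Cxcl1 and Cxcl2 had Pearson's r = 0.97 (exact permutation over 720 orders, two-sided p = 0.00556, adjusted over 15 pairs 0.0208) and Spearman's rho = 0.94 (exact p = 0.0167, adjusted 0.0625). Cxcl1 and Cxcl16 had r = 0.98 (exact p = 0.00417, adjusted 0.0208) and rho = 0.94 (exact p = 0.0167, adjusted 0.0625). Cxcl1 and Cxcl10 had r = 0.95 (exact p = 0.00833, adjusted 0.0243), with the same rho. For Cxcl2 and Cxcl16, r was 0.98 (exact p = 0.00139, the smallest these orders can give, adjusted 0.0208) and rho 1 (exact p = 0.00278, adjusted 0.0417).

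Cxcl12 had negative r with these, and Cxcl15 had r = 0.008 with Cxcl1 and -0.11 with Cxcl2 over the 6 arrays. Cxcl12 had r = -0.84 with Cxcl1 (exact p = 0.0514, adjusted 0.0856; rho = -0.77, exact p = 0.103), -0.87 with Cxcl2 (exact p = 0.0333, adjusted 0.0625; rho = -0.83, exact p = 0.0583) and -0.91 with Cxcl10 (exact p = 0.0333, adjusted 0.0625; rho = -0.71, exact p = 0.136), none of which passed the adjustment. Without the 2 arrays farthest from the median of Cxcl1, r over the remaining 4 arrays was 0.96 with Cxcl2, 0.86 with Cxcl10, 0.97 with Cxcl16, -0.92 with Cxcl12 and 0.92 with Cxcl15, so the value for Cxcl15 rests on the arrays included. For Cxcl2 and Cxcl16, without the 2 arrays farthest from the median of Cxcl2, it was 0.92. Each treatment group holds 3 arrays, too few for a value within it. The mean intensity of the cell arrays lay between 291.32 and 304.41, with untreated 1 the brightest and untreated 2 the dimmest. The median was lowest on untreated 3 (39.47) and treated 3 (39.37), the arrays low in Cxcl1, and its part in this order was not tested.

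**Figure D4:**
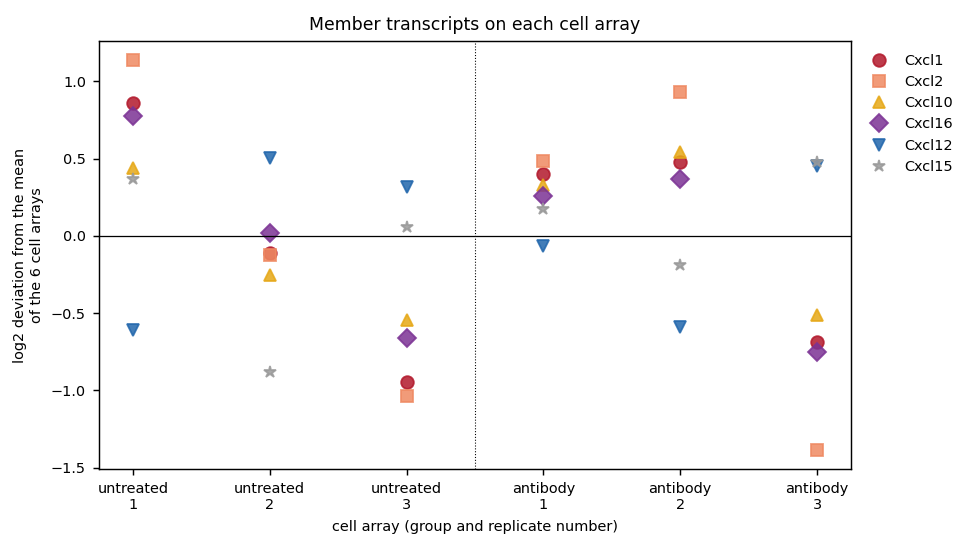
For 6 members, each by its probe set that was brightest over cells and lung together, points give the log2 deviation of each cell array from the mean of the 6 cell arrays. The 3 untreated arrays are left and the 3 antibody-treated arrays right of the dotted line. Cxcl1, Cxcl2, Cxcl10 and Cxcl16 lie above 0 on untreated 1 and treated 1 and 2 and below 0 on untreated 3 and treated 3, and Cxcl12 lies on the opposite side of 0 on each of these arrays.

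In lung, the question was whether the members differ with the labelled sex and vary together between lungs. In the limma model of the 16 lungs, 18 of the 19 probe sets were tested and 0 were called (adjusted p under 0.05) between female- and male-labelled lungs, beside 0.108% of 29538 probe sets, a total of 32. An unadjusted p under 0.05 was reached by 2974 of the 29538. Among the members it was reached by Cxcl12 (1448823_at), 0.27 higher in female-labelled lungs with a 95% interval from 0.097 to 0.44 (adjusted p = 0.251), and Cxcl13 (1417851_at), at 0.31 from 0.042 to 0.57 (adjusted p = 0.428). The Cxcl12 intensities overlapped, with male-labelled lungs at 640 to 899 and female-labelled lungs at 748.2 to 1040. Without male lung 3 and 4 the differences were 0.31 (adjusted p = 0.146) and 0.22 (adjusted p = 0.65). Cxcl12 passed with array weights, at 0.35 (limma, adjusted p = 0.0374). Cxcl5 gave 0.76 (-0.10 to 1.62), Cxcl9 0.47 (-0.12 to 1.05) and Cxcl10 0.39 (-0.032 to 0.82) between the labelled sexes, none of them called.

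The members varied very unequally between lung arrays. The highest lung was 26.4 times the lowest for Cxcl5, 9.2 times for Cxcl9, 5.56 times for Cxcl1, 5.11 times for Cxcl10 and 3.65 times for Cxcl2. Cxcl16 (1.37 times), Cxcl15 (1.47 times), Cxcl12 (1.63 times), Cxcl13 (2.02 times) and Cxcl14 (2.4 times) had narrower ranges. These are the values of each gene's set that was brightest over all arrays, and they differ between sets of a gene. The second set for Cxcl9 (1456907_at) had a ratio of 2.45 and the second for Cxcl14 (1418457_at) 2.64. For Cxcl12, sets 1417574_at and 1439084_at each had a ratio of 2.44, and 1417574_at was the brightest of its sets in lung. Between the arrays numbered 5 to 8 and those numbered 1 to 4, Cxcl14 (1418456_a_at) differed by -0.47 ± 0.13 (limma, adjusted p = 0.0208; 0.00804 without male lung 3 and 4) and set 1439084_at of Cxcl12 by -0.45 ± 0.093 (adjusted p = 0.00381), while the other 16 tested sets were not called. Over all 29538 probe sets tested in lung, 20.3% were called in this comparison. For Cxcl15 (1421404_at) the deposited intensities of these 2 series of arrays did not overlap, 7498 to 8906 for numbers 1 to 4 and 6061 to 7069 for numbers 5 to 8, whereas the difference after normalization was -0.092 (adjusted p = 0.053).

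Cxcl1 and Cxcl2 varied together across the 16 lungs. Pearson's r of their log2 values was 0.81 (permutation, two-sided p = 0.00014, adjusted over 6 pairs 0.00042) and Spearman's rho 0.74 (permutation p = 0.00147, adjusted 0.00441). By the brightest sets, which were used here, both were highest in male lung 7, with Cxcl1 at 78.7 and Cxcl2 at 67.6. Set 1457644_s_at of Cxcl1 was highest in female lung 2, at 134.4 beside 131.2 in male lung 7. By the sets used, both genes were dim in lung, with medians of 32.7 and 29.3 beside array medians of 47.92 to 54.56. Set 1457644_s_at of Cxcl1 had a lung median of 73.6. Without the 2 lungs farthest from the median of Cxcl1, r was 0.72 (permutation p = 0.00402). Within the male-labelled lungs r was 0.83 and within the female-labelled lungs 0.80, and it was 0.74 among the arrays numbered 1 to 4, 0.79 among those numbered 5 to 8, and 0.85 without male lung 3 and 4. Among the arrays numbered 1 to 4 rho was 0.29, lower than r there.

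Cxcl9 and Cxcl10 formed the second pair. Across the 16 lungs r was 0.80 (permutation, two-sided p = 7e-05, adjusted 0.00042) and rho 0.80 (permutation p = 0.00033, adjusted 0.00198). Female lung 2 was highest in both, with Cxcl9 at 207.3 and Cxcl10 at 291.9. Without the 2 lungs farthest from the median of Cxcl9, r was 0.66 (permutation p = 0.0102). It was 0.54 within the male-labelled lungs, 0.81 within the female-labelled lungs, 0.88 among the arrays numbered 1 to 4, 0.79 among those numbered 5 to 8, and 0.81 without male lung 3 and 4. The within-group values rest on 8 lungs each, and no r of either pair passed the adjustment over 6 pairs. Among the arrays numbered 5 to 8, rho was 0.86 for both pairs (permutation, adjusted p = 0.0321), which passed.

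**Figure D5:**
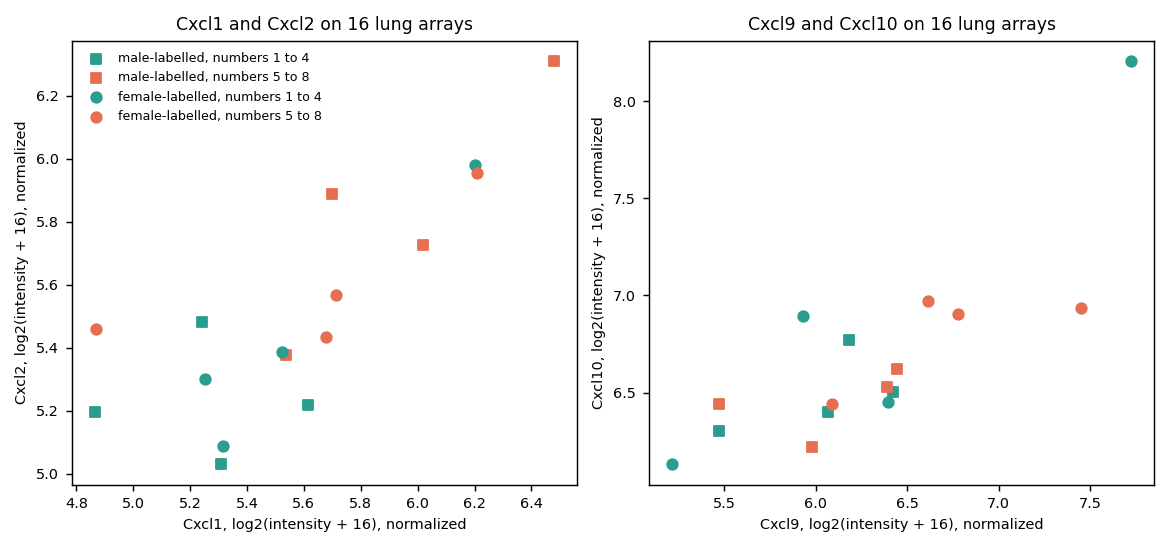
Each point is a lung array, with log2(intensity + 16) after normalization of Cxcl1 against Cxcl2 (left) and Cxcl9 against Cxcl10 (right); squares are male-labelled, circles female-labelled, and colours separate arrays numbered 1 to 4 from 5 to 8. Pearson's r is 0.81 on the left and 0.80 on the right, and female lung 2 is the highest point on the right.

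The other 4 pairs set a ligand against the mean of a marker list, and none passed the adjustment. Cxcl15 and the alveolar type 2 markers had r = 0.55 (permutation p = 0.0358, adjusted 0.0716; rho = 0.32, permutation p = 0.23), which was 0.35 without the 2 farthest lungs, 0.71 and 0.49 within the male- and female-labelled lungs, 0.73 and 0.081 among numbers 1 to 4 and 5 to 8, and 0.20 without male lung 3 and 4. Without normalization the same pair had r = 0.86 (adjusted p = 6e-05, permutation). Cxcl13 and the B cell markers had r = 0.47 (permutation p = 0.0693, adjusted 0.104; rho = 0.45, permutation p = 0.0845), with 0.45 without the 2 farthest lungs, 0.11 and 0.47 within the labelled sexes, 0.72 and 0.09 within the number series and 0.21 without male lung 3 and 4. Cxcl12 and the endothelial markers had r = 0.031 (permutation p = 0.914, adjusted 0.914; rho = 0.23, permutation p = 0.395). Leaving out the 2 farthest lungs gave 0.16, the labelled sexes -0.59 and -0.21, the number series -0.21 and 0.55, and the lungs without male 3 and 4 0.15. Cxcl5 and the neutrophil markers had r = -0.094 (permutation p = 0.729, adjusted 0.875; rho = -0.053, permutation p = 0.846). The corresponding values were -0.24, then 0.14 and 0.045 within the labelled sexes, -0.24 and -0.10 within the number series, and -0.25 without male lung 3 and 4. For these 2 pairs, the sign was therefore not stable between groups of lungs.

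For the 4 members whose highest lung was at least 4 times the lowest, the genes with the most similar pattern over the 16 lungs were sought among 6590 named genes, and r is given as a description. Cxcl5 was nearest to Aldh1a2 (0.83), a retinoic acid-synthesizing enzyme, C1ra (0.80), a complement protease, and Aqr (0.76). Cxcl9 was nearest to Ccl8 (0.81), a chemokine of the CC class, Rab33b (0.76) and Adam17 (0.75). Cxcl10 was nearest to Snrpe (0.74), Rilpl2 (0.73) and Fscn1 (0.72), and Cxcl1 to Usp19 (0.78), Pde3b (0.73) and Cfb (0.71), the complement factor B.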

How the data were processed

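Messenger RNA of 22 mouse samples was read on Affymetrix arrays. The deposited data are linear intensities. Per the submitters' processing notes, the authors obtained them with PLIER, which combines the oligonucleotides of a probe set. Its version, settings and scaling between arrays are not given in the sources used here. Of 45101 probe sets, 64 controls were left out. The gene table listed 34945 of the rest with a single symbol, 932 with several and 9160 not at all.

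Intensities were transformed as log2(intensity + 16) and quantile normalized over the 22 arrays. The offset shrinks differences of dim probe sets. Tests were limited to probe sets that exceeded their array's percentile 40 on 3 or more of the arrays compared. They were made with limma (version 3.58.1, under R 4.3.3) with a variance trend, two-sided tests and Benjamini-Hochberg adjustment over all probe sets tested, at 0.05, and at least 2-fold for cells against lung. Contrasts of a cell group with lung took the average of both labelled sexes, from a fit of the 4 groups. SE are those of the model, and they do not measure spread between tumours. In the fit of the 4 groups they rest on a spread shared by cells and lung, and 16 of the 22 arrays are lung. The antibody comparison used the 6 cell arrays and the sex comparison the 16 lungs. The fits were tested on simulated data. Correlations used scipy 1.17.1 in Python 3.11.15, with 100000 resamples in lung. The number of arrays limits the precision, and no detection calls were available to these steps.

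The members, gene lists, pairs and tests were chosen with earlier results of these data known. All member probe sets are named. Of the other lists, up to 3 called genes with the largest change are named. Beside these, Ackr3, Cxcl3, Cxcl11 and Art3 were chosen as receptor or neighbours, and Adam17 as the remaining protease. Like genes had to be named, with a mean log2 of at least 8 in lung. Alternatives were offsets of 1 and 64, median centring or no normalization, other filters, 1 probe set per gene, no variance trend, array weights, other sets of arrays, the replicate block and leaving out arrays. Those by lung array number, those without female lung 2 and the correlations across cell arrays were chosen after seeing the data.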

Additional observations from a re-analysis of the deposited data

Results flagged for a closer look

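In 5 of 38 sets of 8 lungs, a single lung stood apart from its group by its gap to the nearest value. The criterion flags about 1 in 20 sets of independent, normally distributed values. These sets hold linear intensities, share the same lungs and include several probe sets of a gene. That rate therefore does not apply, and the count is a description. Female lung 2 was the highest of its group in 3 of the 5. Its Cxcl5 intensity was 427.1 and the next female-labelled lung had 183.3. Its Cxcl10 was 291.9 against 117.9 in the next, and its Cxcl15 by set 1456428_at was 7677 against 6562. Male lung 7 stood apart in the other 2, with Cxcl5 at 205.5 against 97.3 in the next male-labelled lung and Cxcl1 by set 1441855_x_at at 90.4 against 53.7. The other sets for Cxcl1 and Cxcl15 did not pass the same criterion. No explanation was tested.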

How the results depend on the processing

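For untreated and treated cells against lung, the totals of called probe sets were 7993 and 7889 with an offset of 64, 6315 and 6226 with 1 probe set per gene (members 3 higher and 6 lower in each) and 26183 and 25789 on the adjusted p alone. Without single arrays (each cell array or female lung 2), the totals ran from 11401 to 12953 and from 11402 to 12767, members higher from 5 to 6 and from 5 to 7, and members lower 10 and from 9 to 10. Of the single member values, 307 of untreated and 301 of treated cells kept direction and call; 7 and 8 lost the call, 1 and 5 gained it, and in treated cells the only sign that turned was that of Cxcl12 1417574_at (-0.042 to 0.68 without single arrays). Median centring moved none of these calls.

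For treated against untreated cells, 5 probe sets were called with an offset of 64, 6 with array weights, 10 in the fit of all 4 groups and 1 to 9 without single arrays, and no member in any. The sign of Cxcl2 turned with an offset of 1 (-0.008) and that of Cxcl16 with array weights (0.21). Without single arrays the difference ran from -0.31 to 0.59 for Cxcl1, -0.50 to 0.71 for Cxcl2, 0.027 to 0.56 for Cxcl10, -0.48 to 0.12 for Cxcl12, -0.061 to 0.57 for Cxcl15 and -0.44 to 0.28 for Cxcl16. Same-numbered samples of the groups did not deviate together (correlations 0.038, -0.17 and -0.011), and the replicate block called 3 probe sets and no member.

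For female against male lung the totals were 19 with an offset of 1, 9 without the filter, 7 with 1 probe set per gene, 7 without the variance trend, 118 with array weights (1 member, Cxcl12), 58 without male lung 3 and 4, 78 with the number series as a term and 4 without female lung 2. Correlation of Cxcl15 with alveolar type 2 markers was 0.86 without normalization. After the adjustment, r of Cxcl1 with Cxcl2 no longer passed in male-labelled (0.83), female-labelled (0.80), numbers 1 to 4 (0.74) and numbers 5 to 8 (0.79), nor that of Cxcl9 with Cxcl10 (0.54, 0.81, 0.88 and 0.79). The sign turned for Cxcl12 with endothelial markers (-0.59, -0.21 and, in numbers 1 to 4, -0.21) and for Cxcl5 with neutrophil markers (0.14 male-labelled, 0.045 female-labelled). The causes were not tested. Dim probe sets, such as those of Cxcl5 and Cxcl9 in the cells, limit what a fold can show.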
